A study of Mus musculus with 4 samples.

Results

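Histones are the proteins around which DNA is wound, and 79 genes that encode them were read from a table of mRNA levels in mouse mammary tissue. They were chosen by name from 21895 distinct named loci. Of the 79, 65 carried a Hist name and are called replication-dependent here, and 14 carried an H1f, H2af or H3f name and are called variant. Where a name had more than 1 entry, the entry with the highest mean level was taken. The choice used the names and no difference between groups.

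The study asked what loss of the microRNA miR-21 does in the mammary gland. Glands of 2 virgin mice with both copies of miR-21 (miR-21+/+, WT) and of 2 mice without it (miR-21-/-, KO) were sequenced, all of them 2 months old and of the mixed strain 129SV::FVB/N::C57BL/6. The knockout is of the whole animal, so every cell type of the gland lacks the microRNA. Poly(A) RNA was selected in 2 rounds before sequencing. The deposited table gives a single level per genotype that combines its mice, in FPKM (fragments per kilobase of transcript, scaled to the fragments mapped, so a level per length). There are therefore no replicates to compare, and every difference below is a description without a test, an error or a p-value.

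Most histone mRNAs of dividing cells are unusual in that they end in a short stem-loop and carry no poly(A) tail. They are made in S phase, when newly copied DNA needs histones, and the stem-loop binding protein Slbp guides their cutting and translation. Variant histones are made throughout the cell cycle from ordinary genes whose mRNAs are polyadenylated, and they replace the standard histones at particular places in chromatin. Some replication-dependent genes also have a poly(A) site further downstream, and polyadenylated forms are known from cells that have left the cycle. Selection for poly(A) keeps mRNAs with a tail, so the levels below are those of what passed this selection.

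The stem-loop was searched in the mouse genome (mm9) on the coding strand, in the 100 bases after each annotated stop codon. The pattern was a stem of 6 base pairs, with at most 1 G:T pair, closed by a loop of 4 bases. The outer 2 pairs were G:C with G on the 5′ side, and the innermost 5′ stem base was T. The loop was T, then T or C, again T or C, and last A, C or T. Likeness at these positions was therefore set by the search, and the share of genes that match depends on these limits. The pattern was present in 60 of the 63 replication-dependent genes with an annotated stop codon (95.2%), and in 1 of 12 variant genes (8.33%), H2afx. Among 21926 coding genes of the annotation, 70 held it (0.319%), of which 63 have a Hist name and 1 is H2afx. It began 22 to 59 bases after the stop codon in the replication-dependent genes, with a median of 31. The 61 stem-loops took 9 forms, and 1 gene of each form is shown so that the shared element can be read. Capitals mark the 16 bases of the stem-loop, at the coordinates given, and the lower case letters are the 5 bases on either side.
Hist1h2bc, chr13:23776516-23776531, plus strand: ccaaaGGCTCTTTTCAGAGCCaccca
Hist1h2bk, chr13:22128169-22128184, plus strand: ccaaaGGCTCTTTTAAGAGCCactaa
Hist2h2ac, chr3:96024341-96024356, minus strand: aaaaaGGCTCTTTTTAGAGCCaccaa
Hist1h3g, chr13:23627758-23627773, plus strand: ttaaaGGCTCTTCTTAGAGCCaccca
Hist1h4h, chr13:23623327-23623342, plus strand: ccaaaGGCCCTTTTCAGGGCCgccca
Hist2h4, chr3:96066862-96066877, minus strand: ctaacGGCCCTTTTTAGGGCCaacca
Hist1h4j, chr13:21827306-21827321, plus strand: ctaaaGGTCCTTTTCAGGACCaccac
Hist1h4a, chr13:23852669-23852684, minus strand: ccaaaGGCCCTTCTCAGGGCCgccca
H2afx, chr9:44143323-44143338, plus strand: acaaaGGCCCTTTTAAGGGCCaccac

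The form of Hist1h2bc was the commonest, in 36 genes of the H1, H2A, H2B and H3 classes. The form of Hist1h2bk, in 9 genes of the same classes, differed from it only in the loop, by C10A, counting positions from 1 at the 5′ end of the capitals with the base of the commonest form first. All 13 H4 genes had stems that differed by the paired changes T4C and A13G, and the form of Hist1h4h was the commonest among them, in 8 genes. The stem of H2afx carried the same pair of changes, and its loop carried C10A. Hist1h3g is shown for its sequence only, since its level was under the minimum used below. The 3 searched genes without a match were Hist1h2an, Hist2h2bb and Hist2h2be.

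A poly(A) signal, AATAAA or ATTAAA, stood in the last 50 bases of an annotated transcript in 16 of the 63 replication-dependent genes and in 11 of the 12 variant genes searched, against 72.4% of all coding genes. H3f3a, H3f3b, H2afz, H1fx and H2afx were among the 11. Hist1h2bc, Hist1h1c and Hist2h2be were among the 16, and Hist2h2aa1 was not. A match of these letters is a description of the sequence, not a mapped end.

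Both kinds of histone mRNA were present in the poly(A) RNA, at very different levels. The 14 variant genes summed to 653 FPKM in WT and 674 FPKM in KO, which was 0.171% and 0.190% of the sum over all named loci. The 65 replication-dependent genes summed to 190 FPKM in WT and 164 FPKM in KO, or 0.0499% and 0.0460%, with a merged entry counted once. The variant genes thus held 3.44 times the level of the replication-dependent genes in WT and 4.12 times in KO. H3f3a and H3f3b alone, which encode the replacement histone H3.3, together held 46.7 times the summed level of the 12 replication-dependent H3 genes in WT and 56.0 times in KO.

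A minimum mean of 1 FPKM over both genotypes left 39 of the 65 replication-dependent genes and 10 of the 14 variant genes. Among the 39, 36 were lower in KO and 3 were higher, with a median log2 ratio of KO over WT of −0.21 (interquartile range −0.36 to −0.09) and a range of −0.54 to 0.28. When both columns were instead scaled to the same sum over named loci, which adds 0.10 to every log2 ratio, 26 of the 39 were lower and the median was −0.11. With equal sums over all loci, which takes 0.63 from every log2 ratio because unnamed loci hold much of the KO sum, all 39 were lower, and so were 95.5% of named loci. In RNA of a whole tissue, fewer cells of a type and less RNA per cell cannot be told apart. The 10 variant genes had a median of 0.00, with 5 lower and 5 higher, so the medians of the 2 kinds differed by −0.21. The kinds also differed in level. All variant genes over the minimum except H2afy2 had a mean above 5 FPKM, and most of the 39 did not. The difference was smaller among genes with a mean of at least 5 FPKM, as given at the end. Over all 13092 named loci at this minimum the median was −0.03 and 55.7% were lower in KO, or 35.4% after that scaling.

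As deposited, none of the 39 replication-dependent genes reached 1.5-fold in either direction, while 36 were lower by that much under equal sums over all loci. That scaling put the median over all named loci at −0.66, itself past 1.5-fold. Most named loci were therefore lower by that much too, which bears on such counts here and in the lists below. The background as deposited was 4.97% of all named loci higher and 5.75% lower by 1.5-fold, to be read beside the count of none. At 2-fold, where the background was 1.70% higher and 2.12% lower, there was no histone gene over the minimum as deposited. Under equal sums over named loci H1fx passed, at a log2 ratio of 1.06. Under equal sums over all loci H1fx did not pass, at 0.33, while several replication-dependent genes were lower by 2-fold. Hist1h4j, at −1.17, and Hist1h2bm, at −1.13, were among them, and no background share was computed under that scaling. Among the 87 named loci of at most 1 kb, 27 of which are histone genes, 3.45% were higher and 3.45% lower by 1.5-fold and the median was −0.10. For loci of like level, the 5th to 95th percentile of the log2 ratio ran from −0.96 to 0.85 at a mean of 1 to 5 FPKM, and from −0.45 to 0.47 at 5 to 20 FPKM. All 39 replication-dependent genes lay inside the range of their level. As deposited, each single difference thus lay within those of other genes of its level.

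**Figure D1:**
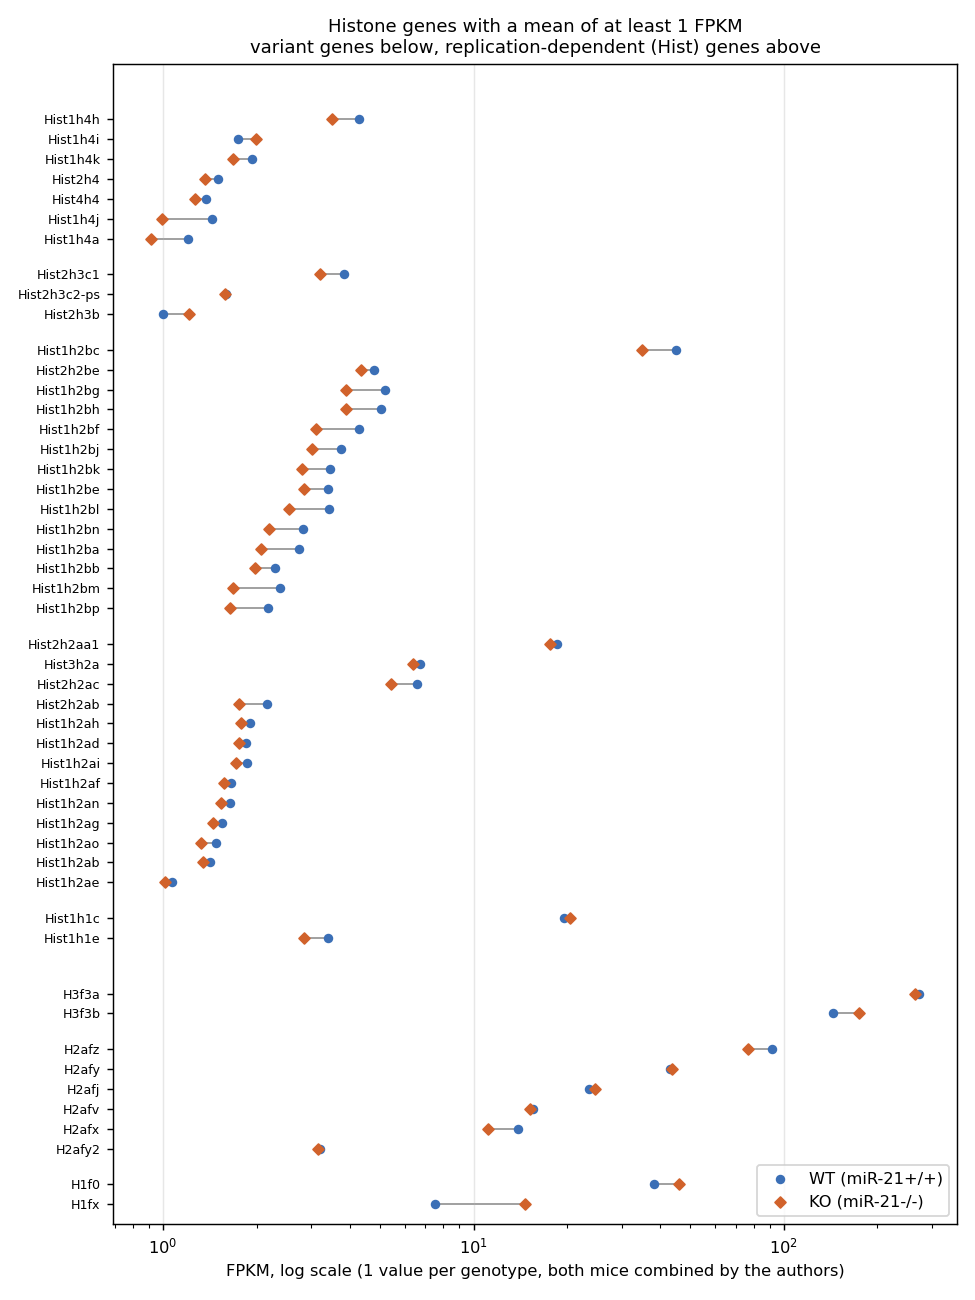
FPKM of each histone gene with a mean of at least 1 FPKM on a log axis, with a circle for WT and a diamond for KO (1 combined value per genotype). All 14 H2B genes and all 13 replication-dependent H2A genes have the KO diamond to the left as deposited, although 9 of these 13 H2A genes are higher in KO under equal sums over named loci, and the H3f3a and H3f3b variant genes stand highest, at 144 to 273 FPKM.

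The core histones H2A and H2B form the dimers on the outer faces of the nucleosome, and their genes lie mostly in pairs in the Hist1 cluster of chromosome 13. Of the 18 H2B genes, 14 passed the minimum, and all 14 were lower in KO, with a median of −0.37 and a range of −0.50 to −0.14. They were lower in all 14 cases under each scaling. Hist1h2bc was the highest of all replication-dependent genes, at 44.8 FPKM in WT and 35.0 FPKM in KO, a log2 ratio of −0.36. It held 23.6% of the summed level of the replication-dependent genes in WT and 21.4% in KO.

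The next H2B genes were several times lower. Hist1h2bg had 5.19 FPKM in WT and 3.87 FPKM in KO, Hist1h2bh had 5.05 and 3.89, and Hist1h2bf had 4.28 and 3.12. Hist1h2bm had the lowest plain ratio of the class, from 2.37 to 1.68 FPKM (−0.50), or −0.33 with a pseudocount of 1. Hist2h2be, which lies on chromosome 3 and had no stem-loop match, had the highest, from 4.77 to 4.33 FPKM (−0.14). The other 8 H2B genes, with WT levels from 2.17 to 3.74 FPKM, had ratios between −0.43 and −0.21. In FPKM the H2B genes summed to 92.5 in WT and 73.1 in KO.

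Of the 16 H2A genes, 13 passed the minimum, and all 13 were lower in KO as deposited, with a median of −0.09 and a range of −0.30 to −0.07, but under equal sums over named loci 9 of the 13 were higher. Hist2h2aa1, the highest of them, had 18.6 FPKM in WT and 17.7 FPKM in KO (−0.08), with the same values at both of its copies on chromosome 3. Hist3h2a had 6.74 and 6.38 FPKM (−0.08). Hist2h2ac and Hist2h2ab, neighbours on chromosome 3, had the lowest ratios, from 6.59 to 5.42 FPKM (−0.28) and from 2.16 to 1.75 FPKM (−0.30). The other 9 genes, all in the Hist1 cluster, had WT levels between 1.07 and 1.90 FPKM and ratios between −0.16 and −0.07. The H2A genes summed to 49.8 FPKM in WT and 45.9 FPKM in KO.

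H3 and H4 form the central tetramer of the nucleosome. No variant gene of H4 was among the members, and 7 of the 13 replication-dependent H4 genes passed the minimum, with a median of −0.20. Hist1h4h was the highest, at 4.27 FPKM in WT and 3.50 FPKM in KO (−0.29). Hist1h4j had the lowest plain ratio of all 39 genes, from 1.43 to 0.988 FPKM (−0.54), or −0.29 with a pseudocount of 1, where Hist1h2bf was lowest at −0.36, while Hist1h4i was higher in KO, from 1.74 to 1.98 FPKM (0.19). The 4 other H4 genes had ratios from −0.39 to −0.12. Only 3 of the 12 H3 genes passed. Hist2h3c1 had 3.81 and 3.21 FPKM (−0.25), Hist2h3c2-ps, named as a pseudogene, had 1.59 and 1.58 (−0.01), and Hist2h3b had 1.00 and 1.22 (0.28). The 9 others, all in the Hist1 cluster, lay between 0.125 and 0.494 FPKM in WT.

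H1 histones bind the linker DNA between nucleosomes. Hist1h1c was the second highest of the replication-dependent genes and was slightly higher in KO, with 19.5 FPKM in WT and 20.5 FPKM in KO (0.07). Hist1h1e shared its entry in the table with Hist1h2be, over chr13:23675539-23714427, at 3.39 FPKM in WT and 2.84 FPKM in KO (−0.25), and the reads of these 2 genes cannot be told apart. The other 4 H1 genes were under 1 FPKM. Hist1h2bc, Hist1h1c and Hist2h2aa1 together held 43.7% of the replication-dependent level in WT and 44.7% in KO. Without these 3 the median was −0.23, with 34 of 36 genes lower. Without the H2B genes it was −0.10, with 22 of 25 lower.

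**Figure D2:**
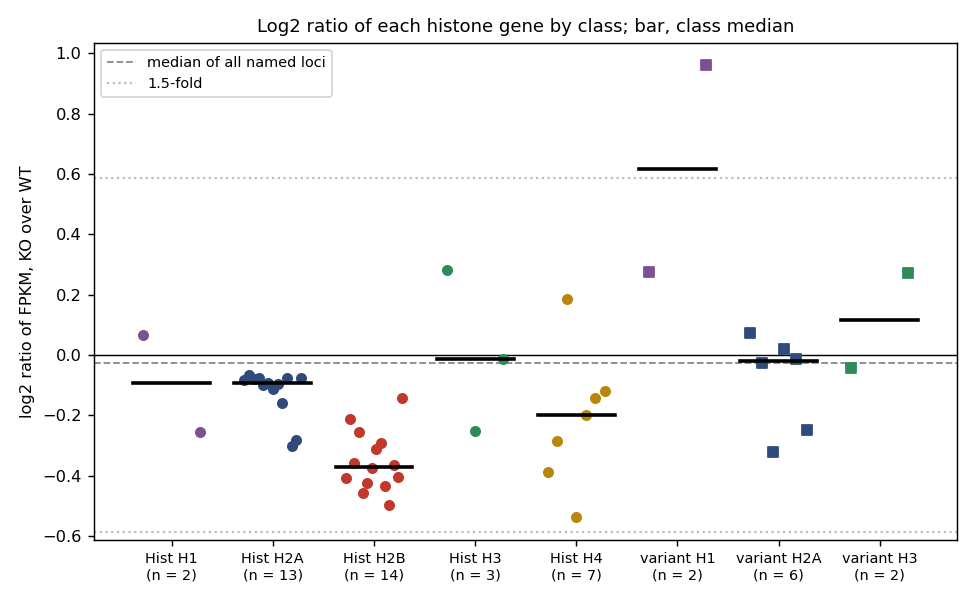
Log2 ratio of KO over WT FPKM for each histone gene with a mean of at least 1 FPKM, by kind and class, with the class median as a bar, the median of all named loci dashed and 1.5-fold dotted. The H2B genes lie lowest, around −0.37. H1fx alone lies past 1.5-fold as deposited, against 4.97% of all named loci higher and 5.75% lower by that much.

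The 26 replication-dependent genes under the minimum had too little signal for a ratio to be read, and none was at 0 in both genotypes. No share of all named loci under the minimum was computed as a background for the counts that follow. By ratio 3 of the 26 were higher by 1.5-fold or more and 4 lower, and they are named here for those values. The higher ones were Hist3h2ba, from 0.600 to 1.01 FPKM, Hist1h1d, from 0.315 to 0.506 FPKM, and Hist2h2bb, from 0.0482 to 0.0846 FPKM. The lower ones were Hist1h1t, Hist1h2aa, Hist1h3d and Hist1h4m, of which Hist1h4m had the highest level, with 0.881 FPKM in WT and 0.583 in KO. Around the minimum, Hist1h2br lay just outside, at 1.10 and 0.841 FPKM, and Hist1h2ae just inside, at 1.07 and 1.01 FPKM.

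By position, the 52 genes of the Hist1 cluster on chromosome 13 gave 29 over the minimum, with a median of −0.25 and 27 lower in KO. The 9 genes of the Hist2 cluster on chromosome 3 gave 8, with a median of −0.14 and 7 lower. The Hist3 cluster on chromosome 11 gave Hist3h2a only, and chromosome 6 gave Hist4h4, from 1.38 to 1.27 FPKM (−0.12). As deposited, most genes over the minimum were thus lower on chromosomes 13 and 3, and the other 2 locations rest on 1 gene each. With genes under the minimum included, the Hist3 cluster summed to 7.56 FPKM in WT and 7.61 FPKM in KO. Of all named loci over the minimum, 55.7% were lower as well.

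The variant genes were 5 lower and 5 higher in KO as deposited, while 8 of the 10 were higher under equal sums over named loci and 9 lower under equal sums over all loci. H3f3a had 273 FPKM in WT and 264 FPKM in KO (−0.04), and H3f3b, which encodes the same protein from a different chromosome, had 144 and 174 FPKM (0.27). The 2 genes together made up 63.8% of the variant level in WT and 65.1% in KO. Among the H2A variants, H2afz, which encodes H2A.Z, a histone of promoters and other regulatory DNA, had 91.2 FPKM in WT and 76.8 FPKM in KO (−0.25). H2afv, which encodes a second H2A.Z protein, had 15.5 and 15.2 FPKM (−0.03).

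H2afy and H2afy2 encode the macroH2A histones, which carry a large extra domain. H2afy had 42.9 FPKM in WT and 43.5 FPKM in KO (0.02), in an entry for which the authors' program reported a failed test, and H2afy2 had 3.19 and 3.16 FPKM (−0.01). H2afj had 23.5 and 24.7 FPKM (0.07). H2afx, whose product is phosphorylated around DNA breaks, had the lowest ratio among the variants, from 13.9 to 11.2 FPKM (−0.32). It is also the variant gene with the stem-loop. Its ratio lay within the span of the replication-dependent genes, as did those of all other variant genes over the minimum except H1fx.

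The linker variants were both higher in KO as deposited, although under equal sums over all loci H1f0 was lower, at −0.36, and H1fx stayed higher, at 0.33. H1fx went from 7.51 FPKM in WT to 14.6 FPKM in KO, a log2 ratio of 0.96 or 1.95-fold. Of the loci with a mean of 5 to 20 FPKM, 98.9% had a lower ratio. Among the 49 histone genes over the minimum H1fx was, as deposited, the only 1 past 1.5-fold and outside the range of loci of like level. Of all named loci, 4.97% were higher and 5.75% lower by 1.5-fold, so 1 of 49 was not above that share. The range of like level also leaves out loci at both ends by construction. H1f0, which encodes H1.0, a linker histone known from cells that have stopped dividing, had 38.1 and 46.0 FPKM (0.27). H1fnt and H2afb1 were listed at 0 in both genotypes, H1foo at 0.0228 FPKM in WT and 0 in KO, and H2afy3 at 0.304 and 0.265 FPKM. H1fnt, H1foo and H2afb1 are known from germ cells.

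The end of each measured locus was set against the position of the stem-loop. In the table, 30 of the 60 replication-dependent loci with a stem-loop ended before its last base, 11 ended up to 100 bases past it and 19 ended further on. The WT levels of the 30 had a median of 1.57 FPKM and a highest value of 6.59 FPKM, in Hist2h2ac. Those of the 19 had a median of 1.74 FPKM and included Hist1h2bc and Hist1h1c. A poly(A) signal stood in the last 50 bases of the locus in 13 of the 19 and in none of the 30. Most of the 30 loci held the coding sequence only and ended at the stop codon. Their last 50 bases could therefore show no signal beyond it, and the contrast says nothing about the genes. The 11 in between had a lower median, of 0.297 FPKM, so the levels did not follow the distance. Of the 3 highest genes 2 were among the 19, and Hist2h2aa1, the other, ended 68 bases past its stem-loop.

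Log2 ratios had a median of −0.30 in the 19 genes over the minimum whose locus ended before the last base of the stem-loop, with 18 lower, of −0.09 in the 4 that ended up to 100 bases past it, with 4 lower, and of −0.20 in the 13 that ended further on, with 11 lower. The locus of Hist1h2bc ran 7818 bases past the stem-loop and that of Hist1h1c 840 bases. A locus in the table can span overlapping transcripts, so its end is not that of 1 mRNA.

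**Figure D3:**
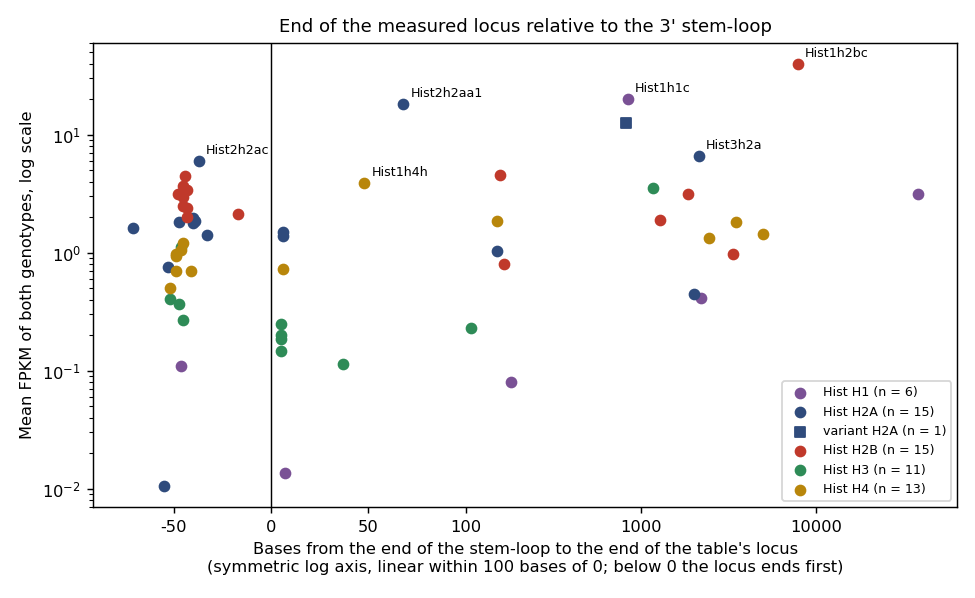
Mean FPKM of both genotypes (log axis) against the distance from the end of the stem-loop to the end of the table's locus, for the 60 replication-dependent genes and H2afx. Of the 60 replication-dependent loci, 30 lie left of 0, none of them above 6.59 FPKM in WT, while Hist1h2bc and Hist1h1c lie far to the right.

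The single values of most replication-dependent genes are not independent measurements, because most of their coding sequences are nearly alike. Each coding sequence was cut into windows of 50 bases, and a window was called shared if another histone gene held it with at most 2 mismatches. The median share over 63 replication-dependent genes was 98.8%, and over 12 variant genes it was 0%. H2B genes shared a median of 95.3% of windows with Hist1h2bc itself, H4 genes 72.8% with Hist1h4h, and H2A genes 37.2% with Hist2h2aa1. Reads from these stretches fit more than 1 gene, so a value given for 1 gene can hold reads of another, and the 14 H2B values cannot be taken as 14 separate measurements. How the authors placed such reads was not stated in the sources used here.

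The genes that share least have fewer stretches where reads fit another histone gene. Of the replication-dependent genes over the minimum, 8 shared under 50% of their windows, a limit chosen after the values were seen. They had a median of −0.14, with 7 of 8 lower, against −0.25 and 28 of 30 for the rest. Hist4h4, the most distinct, shared 1.90% of its windows. Hist2h4 shared 20.5%, Hist2h2be 24.4%, Hist3h2a 35.5% and Hist1h1c 39.8%, and these 5 had ratios from −0.14 to 0.07. Hist1h1e, in its merged entry, shared 34.4%, Hist2h2ab 46.8% and Hist1h2ba 48.1%, and these 3 had ratios from −0.41 to −0.25. The merged entry also holds reads of Hist1h2be, which shared 100% of its windows and counts among the 30. Its value thus stands on both sides of the split. Under equal sums over named loci the ratios of Hist3h2a and Hist1h1c were both above 0. H1fx and both H3f3 genes shared no window.

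**Figure D4:**
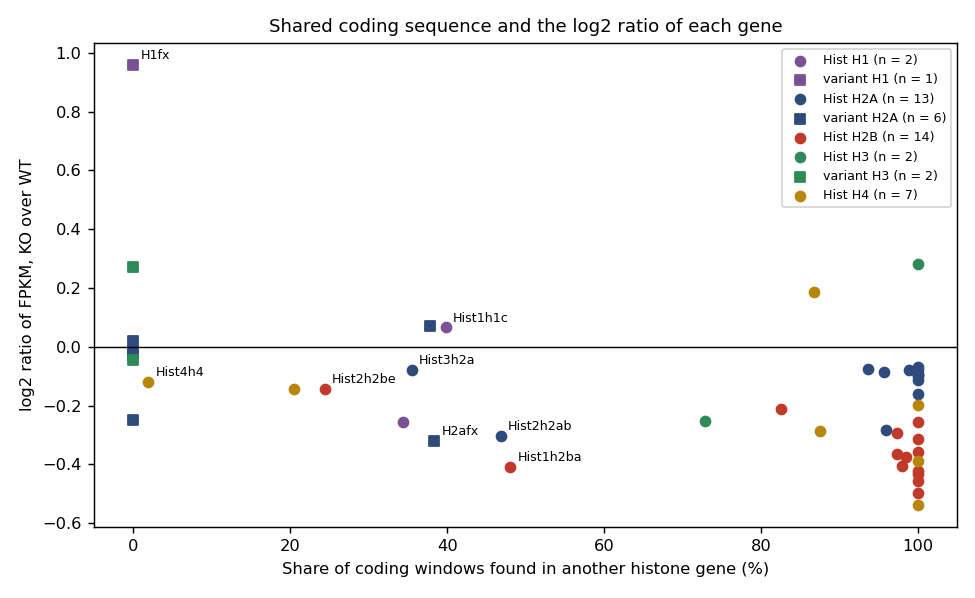
Log2 ratio of KO over WT FPKM against the share of a gene's coding windows found in another histone gene, for members with a mean of at least 1 FPKM and an annotated coding sequence. Of the replication-dependent genes (circles), 30 sit at 50% or more, and the 8 under 50% lie between −0.41 and 0.07.

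Other genes of the same pathways were read from lists written from general knowledge, but with earlier results of these data known. As deposited, 4.97% of all named loci were higher and 5.75% lower by 1.5-fold, to be read beside each count below. The 21 genes over the minimum, of 22 listed, for histone mRNA 3′ processing and decay had a median of −0.04, and 0 of 21 were past 1.5-fold in either direction as deposited, against 18 lower under equal sums over all loci. The lowest ratios were those of Lsm1, in the complex that binds histone mRNA for decay, from 6.37 to 5.34 FPKM (−0.26), and Lsm10, a subunit of the U7 particle, from 13.6 to 12.0 FPKM (−0.18). The highest was that of Snrpd3, from 42.3 to 47.9 FPKM (0.18), and Npat, which switches on histone genes in S phase, had 3.26 and 3.64 FPKM (0.16). Slbp, picked out for its role after its value was seen, had 18.5 and 17.9 FPKM (−0.05).

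The 19 genes over the minimum, of 20 listed, of the poly(A) tail machinery had a median of −0.01 and also none past 1.5-fold as deposited, against 14 lower under equal sums over all loci. Papola, the main poly(A) polymerase, had 37.9 FPKM in WT and 35.0 FPKM in KO (−0.12), and Pabpc1, which coats the tail, had 231 and 266 FPKM (0.20). For comparison, 105 small RNA genes of other kinds made without a tail, mostly snoRNAs, were read too. Of these, 28 were at 0 in both genotypes and 40 passed the minimum with a level above 0 in both. These 40 had a median of −0.01, with 10 genes higher and 10 lower by 1.5-fold, against 4.97% and 5.75% of all named loci. Snord58b, Snord70 and Snord72 also passed but were at 0 in WT or KO, so they had no ratio and are in neither count. The 105 genes summed to 188 FPKM in WT and 193 FPKM in KO. For genes this short FPKM is imprecise, and the ratios of the 40 spread from −2.49 (Snord83b) to 1.92 (Scarna17).

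Histone chaperones carry histones to DNA, and the 21 genes measured of 23 listed had a median of 0.00. As deposited, 3 were lower by 1.5-fold and 0 higher, against 5.75% and 4.97% of all named loci. No gene was lower by that much under equal sums over named loci or with a pseudocount of 1, and 14 were under equal sums over all loci. The 3 were Asf1b, from 3.20 to 2.04 FPKM (−0.65), Chaf1b, from 2.65 to 1.71 FPKM (−0.63), both of which act behind the replication fork, and Cenpa, the centromere histone H3, from 10.7 to 6.99 FPKM (−0.62). Hira and Cabin1, which place H3.3 outside S phase, had 8.08 and 9.10 FPKM (0.17) and 13.1 and 15.8 FPKM (0.27).

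The S phase and proliferation list had the same sign as the replication-dependent histones, and by more. All 26 measured genes of 27 listed were lower in KO, with a median of −0.38. As deposited, 7 were lower by 1.5-fold, against 5.75% of all named loci. That count was 5 under equal sums over named loci and 5 with a pseudocount of 1. It was all 26 under equal sums over all loci, where most named loci were lower by that much too. The 26 genes summed to 225 FPKM in WT and 174 FPKM in KO, and none was at 0. Rrm2 and Tk1, which supply deoxynucleotides, had 6.53 and 3.25 FPKM (−1.01) and 8.22 and 4.25 FPKM (−0.95), and Ccne1, the cyclin of S phase entry, had 2.52 and 1.32 FPKM (−0.93). The smallest differences were those of Cdk2, at 16.3 and 15.4 FPKM (−0.08), and Mcm7, at 13.2 and 11.6 FPKM (−0.19). With equal sums over named loci 25 of the 26 were lower.

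Markers of cell types in the gland also differed between the genotypes, in the same libraries as the histone genes. All 14 B and T cell markers measured, of 15 listed, were lower in KO by 2-fold or more, against 2.12% of all named loci. Their median was −2.49, with a summed level of 74.4 FPKM in WT and 14.1 FPKM in KO. The defining markers Ms4a1 (5.61 and 0.549 FPKM) and Cd3e (7.26 and 1.22 FPKM) were above 0 in both. Of 10 epithelial markers, of 11 listed, 9 were higher in KO as deposited and 3 under equal sums over all loci, with a median of 0.53 and sums of 682 and 945 FPKM. Of 9 adipocyte markers, of 10 listed, 8 were lower in KO, with a median of −0.36 and sums of 26317 and 18597 FPKM. All 10 skeletal muscle markers were higher as deposited and 8 under equal sums over all loci, with a median of 0.78 and sums of 1424 and 2364 FPKM. No marker of these 4 lists was at 0 in either genotype. The part of these differences in the histone values was not tested.

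**Figure D5:**
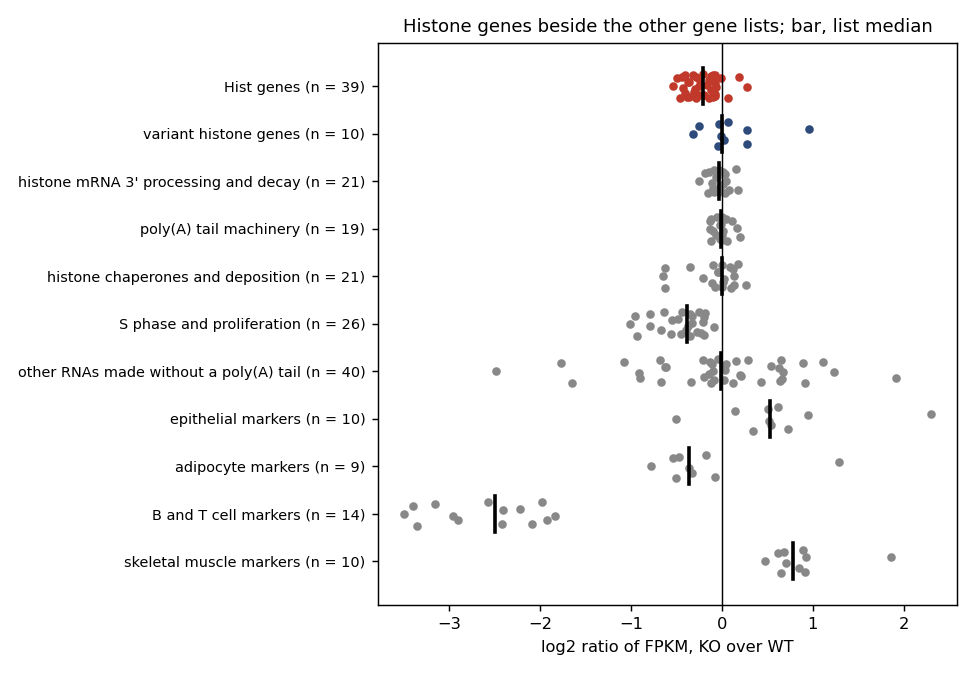
Log2 ratio of KO over WT FPKM for each gene with a mean of at least 1 FPKM, by list, with the list median as a bar. The replication-dependent (Hist) genes centre on −0.21, between the 3′ processing genes at −0.04 and the adipocyte markers at −0.36. The S phase genes centre on −0.38, and the B and T cell markers lie far lower at −2.49.

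The targeted gene could not serve as a check of the labels. The table merges Mir21 with Vmp1, the gene it lies in, at 42.5 FPKM in WT and 68.2 FPKM in KO (0.68), and poly(A) RNA of this kind shows the long host transcript rather than the mature microRNA.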

How the data were processed

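Poly(A) RNA of mammary glands from 2 miR-21+/+ and 2 miR-21-/- mice was sequenced on an Illumina HiSeq instrument. Per the labels and the study's methods, the authors used CASAVA for the reads, which were single-end, TopHat for alignment (mm9) and Cufflinks for levels. The deposited Cuffdiff table has 30506 loci, with 1 FPKM value per genotype over both mice. The deposited status words mark whether a locus was tested, and were read to report failed tests. The authors' own fold changes, test statistics, p-values and q-values are also in the table and were not used. Versions, annotation and normalization were not given in the sources used here. Depth is unknown, since FPKM keeps no read counts, so no interval was computed.

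Log2 ratios of KO over WT FPKM were plain ratios without a pseudocount, over genes with a mean of at least 1 FPKM, and 1.5-fold (2-fold as an alternative) served as a limit. A model with a value per mouse, planned in case the table held one, was not run. Of the 79 histone names, 3 had a pair of entries with identical values and 2 shared a merged entry. All histone genes over the minimum, any variant gene, and of each other list the 3 highest and 3 lowest ratios and its defining markers could be named. Outside this rule, some replication-dependent genes under the minimum were named for their sequence, level or ratio. The members, lists and tests were chosen with earlier results of these data known. Sequences came from mm9 (NCBIM37) with GENCODE annotation, in which 75 of the 79 genes had a stop codon, and table starts count from 0. Scripts were tested on simulated data. Calculations used Python 3.11.15, numpy 2.4.6 and pandas 2.3.3, and figures matplotlib 3.10.9.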

Additional observations from a re-analysis of the deposited data

How the results depend on the processing

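Of 583 values recomputed under alternatives, 471 moved by no more than 0.1 on the log2 scale (or 1.5 times for counts and shares) and 112 moved by more. Adding 0.10 to every ratio (equal sums over named loci) turned the medians of the 3′ processing, poly(A) machinery, chaperone and other tailless RNA lists to above 0, at 0.06 to 0.10, and that of the 13 H2A genes to 0.01. Scaling to equal sums over all loci takes 0.63 from every ratio by construction, leaving the median over all named loci at −0.66, past 1.5-fold. It gave medians of −0.84 for replication-dependent and −0.63 for variant genes, with 36 replication-dependent genes lower by 1.5-fold, and of the variant genes 6 lower and 0 higher. The list medians were then −0.67 (3′ processing), −0.64 (poly(A) machinery), −0.63 (chaperones), −1.01 (S phase), −0.64 (other RNAs without a tail), −0.10 (epithelial), −0.99 (adipocyte), −3.12 (B and T cell) and 0.15 (muscle). The replication-dependent share of the summed FPKM was 0.0250% in WT and 0.0139% in KO over all loci. With a mean of at least 5 FPKM the replication-dependent median was −0.078 and the difference between kinds −0.10. Only Hist1h2bc, Hist1h1c, Hist2h2aa1, Hist3h2a and Hist2h2ac of the replication-dependent genes reached that level. Without a minimum, 3 replication-dependent genes were higher and 4 lower by 1.5-fold, counts for which no background share was computed. At 2-fold, 0 variant genes were higher. Without the H2B genes, an alternative chosen after seeing the data, the median was −0.10 and the difference −0.10. With a pseudocount of 1, 9 of the 49 single histone genes moved closer to 0 by over 0.1. The B and T cell median was −1.56 with a pseudocount of 1, −2.37 with 0.1 and −2.04 at 5 FPKM or more. The causes of the moves with the FPKM minimum were not tested. No paired analysis was possible because each locus has 1 combined FPKM value for each genotype, and for the same reason no mouse could be left out. With 1 value per genotype, the spread between mice limits every statement here and cannot be seen.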
